A study of Mus musculus with 162 samples.

Results

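The libraries described here came from cheek skin of wild-type C57BL/6 mice on day 8 of the MC903 model, in animals that had been injected with PBS. They were chosen by their labels alone (skin, wild-type, PBS injection, day 8) and make up 5 of the 162 libraries of the series, with 2 from MC903-treated and 3 from ethanol-treated skin. All animals were adult males. MC903 (calcipotriol) is a synthetic analog of vitamin D, and it was pipetted onto the shaved cheek once a day as 20 µL of a 0.2 mM solution in ethanol, while control skin received ethanol alone. PBS was given intraperitoneally every day from the day before the first application, as the vehicle for 250 µg of the neutrophil-depleting antibody aGr1 (anti-Gr1), so all 5 animals shared the handling and injections but none received antibody. Each value is a library of whole cheek skin, and the question was which genes differed between MC903 and ethanol in mice that carried the injection procedure. Where useful, the same contrast is set beside that in skin of uninjected wild-type mice on day 8 (5 MC903 and 6 ethanol libraries) and of aGr1-injected wild-type mice on day 8 (4 and 4 libraries).

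Vitamin D analogs bind the vitamin D receptor, a nuclear receptor that keratinocytes express at high levels, and switch on genes such as that for the vitamin D 24-hydroxylase. In mouse skin they also raise the epithelial cytokine TSLP, which acts on dendritic cells, T cells, basophils and other leukocytes, and repeated application gives a red, scaly and itchy inflammation used as a model of atopic dermatitis. Such inflamed skin is known for a thickened epidermis, antimicrobial peptides, recruited leukocytes and a weakened barrier of cornified envelope proteins and lipids.

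The 5 libraries held between 19360413 and 29080747 counts on genes, with 13.63 to 15.64% of further counts on no annotated gene. Levels are given in cpm, read counts scaled to the size of each library, and the log2 fold change is MC903 over ethanol, from edgeR's quasi-likelihood test. The standard error given with it is the size of the log2 fold change divided by the square root of the test's F statistic. A gene was called when its Benjamini-Hochberg adjusted p over all 24416 genes tested was under 0.05. The labels number the libraries but do not say that each came from a separate mouse, so the p-values measure the spread between these libraries. With only 2 MC903 libraries, a call rests on 3 residual degrees of freedom. The libraries carried the defining genes of skin: the 12 keratinocyte markers summed to 19041 and 15885 cpm in MC903 libraries 1 and 2 and to 12649 to 14909 cpm with ethanol, and none of them was at 0. Markers of other tissue in the biopsy were less even. Salivary and lacrimal gland markers summed to 359 and 10181 cpm with MC903 and to 53.9 to 112.98 cpm with ethanol, hair follicle markers to 1279.6 and 9071 cpm against 2526 to 22026 cpm, and skeletal muscle markers to 14198 and 9371 cpm against 11487 to 39818 cpm. MC903 library 2 therefore stood apart by its gland RNA, and ethanol library 2 had the lowest hair and the highest muscle sum of the ethanol libraries. The part of these tissues in the results was not tested beyond the values given beside them.

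**Figure D1:**
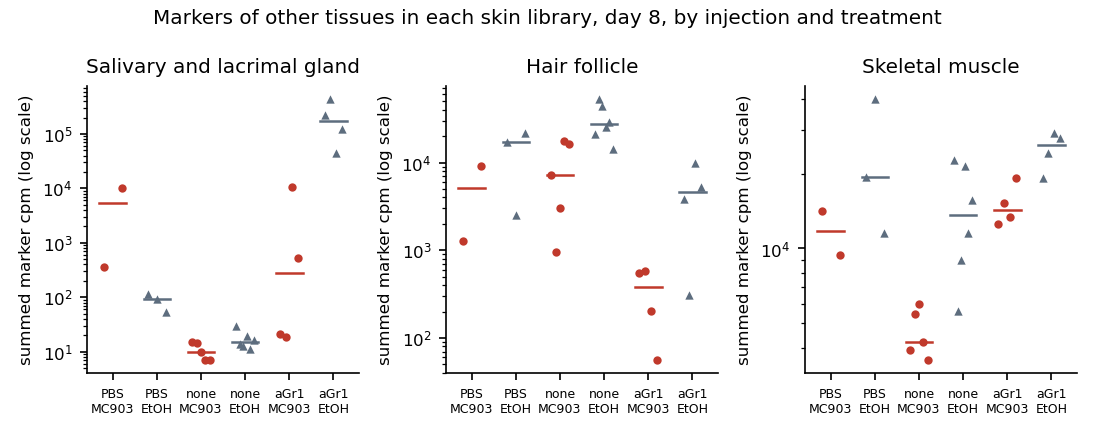
Summed cpm of the salivary and lacrimal gland, hair follicle and skeletal muscle markers (log axis) in each library of day 8 wild-type skin, by injection group and treatment, with a bar at the group median. In PBS-injected skin the gland sum was 359 and 10181 cpm with MC903 and at most 112.98 cpm with ethanol, and the aGr1 ethanol libraries reached 436727 cpm.

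MC903 changed 973 of the 24416 genes tested (3.99%), of which 797 were higher (3.26%) and 176 lower (0.721%). Of these, 941 differed by more than 2-fold, and the median log2 fold change over all genes was -0.01. At an unadjusted p under 0.05 there were 4382 genes. The MC903 libraries lay above all ethanol libraries in 5183 genes (21.2%) and below all of them in 3971 genes (16.3%), so groups that do not overlap were common in this small design. Single libraries moved the number of calls strongly: 101 genes were called without ethanol library 1, 267 without MC903 library 2, 336 without MC903 library 1, 573 without ethanol library 3 and 2172 without ethanol library 2. Each of the 973 genes kept its direction in every one of these fits that tested it. In this bulk tissue, fewer cells of a type and less RNA per cell cannot be told apart.

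**Figure D2:**
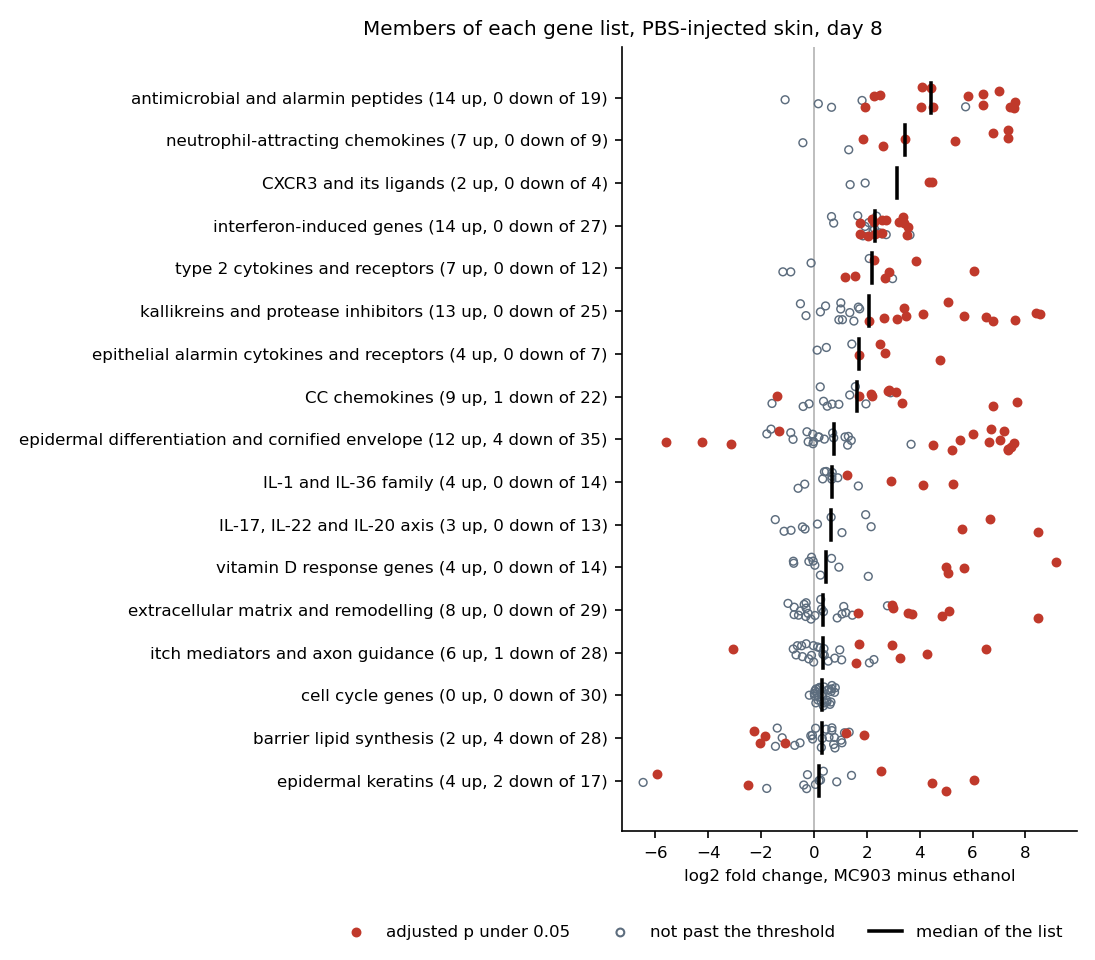
Log2 fold change (MC903 over ethanol, PBS-injected skin) of each tested member of 17 gene lists, one dot per gene, with called genes in red and a bar at the list median. The medians of the antimicrobial peptides (4.42) and the neutrophil-attracting chemokines (3.45) lay far from the median of all genes (-0.01), while that of the cell cycle genes was 0.31 with no called member.

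Among called genes that averaged at least 5 cpm with MC903, the largest log2 fold change was that of Cyp24a1, the 24-hydroxylase that inactivates vitamin D and a classical target of its receptor (chromosome 2, 170482708 to 170497145, GRCm38). Its level was 3114 and 2419 cpm in the MC903 libraries and 6.59, 6.18 and 1.68 cpm in the ethanol libraries, a log2 fold change of 9.17 ± 0.70 (adjusted p = 0.00211 by edgeR's quasi-likelihood test). Both treated libraries stood far above every control library. The vitamin D response list had 4 of 14 tested members called higher and none lower (median log2 fold change 0.46), and the others called were the kallikreins Klk6 and Klk13, serine proteases of the upper epidermis, and S100g, a calcium-binding protein. Klk6 was at 696 and 902 cpm with MC903 and at 27.3, 16.4 and 27.8 cpm with ethanol (5.08 ± 0.33), and Klk13 at 178 and 182 and at 3.90, 1.44 and 5.37 cpm (5.66 ± 0.52). In both genes the 2 groups lay well apart. S100g was close to the detection limit in ethanol skin and at least 12.1-fold higher with MC903, taking 3 counts per ethanol library as the floor. Vdr, the receptor itself, was at 131.3 and 235 cpm against 241, 91.1 and 257 cpm, and these groups overlapped (-0.09 ± 0.49, adjusted p = 0.955). When MC903 libraries 1 and 2 and ethanol libraries 1, 2 and 3 were left out in turn, the list held 3, 3, 2, 4 and 3 calls.

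Epithelial cytokines that start type 2 inflammation were higher with MC903. Tslp was at 61.96 and 60.1 cpm with MC903 and at 1.56, 3.67 and 1.57 cpm with ethanol (4.76 ± 0.41, adjusted p = 0.00294 by edgeR's quasi-likelihood test). Il33, an alarmin held in the nuclei of barrier cells, was at 127.4 and 99.9 against 17.2, 25.6 and 10.8 cpm (2.68 ± 0.36). In both genes the lowest MC903 library was several times the highest ethanol library. A chain of each receptor rose with them. Il1rl1, a chain of the IL-33 receptor, was at 24.8 and 34.1 against 6.15, 7.01 and 2.61 cpm (2.50 ± 0.42). Crlf2, a chain of the TSLP receptor, was at 11.9 and 12.8 against 4.31, 4.60 and 2.61 cpm (1.69 ± 0.29). The receptor chains Il1rap and Il7r, also on the list, were not among the called genes. The epithelial alarmin list thus had 4 of 7 members called higher and none lower (median 1.69), and 1, 1, 0, 5 and 3 when MC903 libraries 1 and 2 and ethanol libraries 1, 2 and 3 were left out in turn.

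The type 2 list of cytokines and receptors had 7 of 12 members called higher and none lower (median 2.18). With MC903 libraries 1 and 2 and ethanol libraries 1, 2 and 3 left out in turn, 2, 2, 1, 9 and 6 were called higher. Il4, the cytokine that drives T cells to the type 2 fate, was at 4.30 and 3.05 cpm with MC903 and at 0.687, 0.611 and 0.215 cpm with ethanol (2.85 ± 0.47, adjusted p = 0.0281 by edgeR's quasi-likelihood test). All 5 levels were low, but the groups did not overlap. Il13, its close relative, was at 0.519 and 0.790 against 0.0312, 0.144 and 0.0716 cpm and missed the threshold (2.98 ± 0.63, adjusted p = 0.0575 by the same edgeR test). The shared receptor chain Il4ra was at 182 and 201 against 34.8, 22.4 and 32.2 cpm (2.69 ± 0.24), and the second chain Il13ra1 at 173 and 159 against 75.8, 81.1 and 62.1 cpm (1.19 ± 0.19). Osm (oncostatin M), a cytokine of myeloid and T cells, was at 11.003 and 19.3 against 0.375, 0.252 and 0.0358 cpm (6.06 ± 0.62), and its receptor Osmr at 82.7 and 92.6 against 33.7, 29.5 and 26.8 cpm (1.56 ± 0.18). Each of these 4 genes separated the 2 groups completely. Areg, an EGF receptor ligand, and Csf2 (GM-CSF) were also called, Csf2 at least 7.09-fold higher. The itch cytokine Il31 had 0 counts in all 5 libraries, which allows at most 3 counts in any of them.

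**Figure D3:**
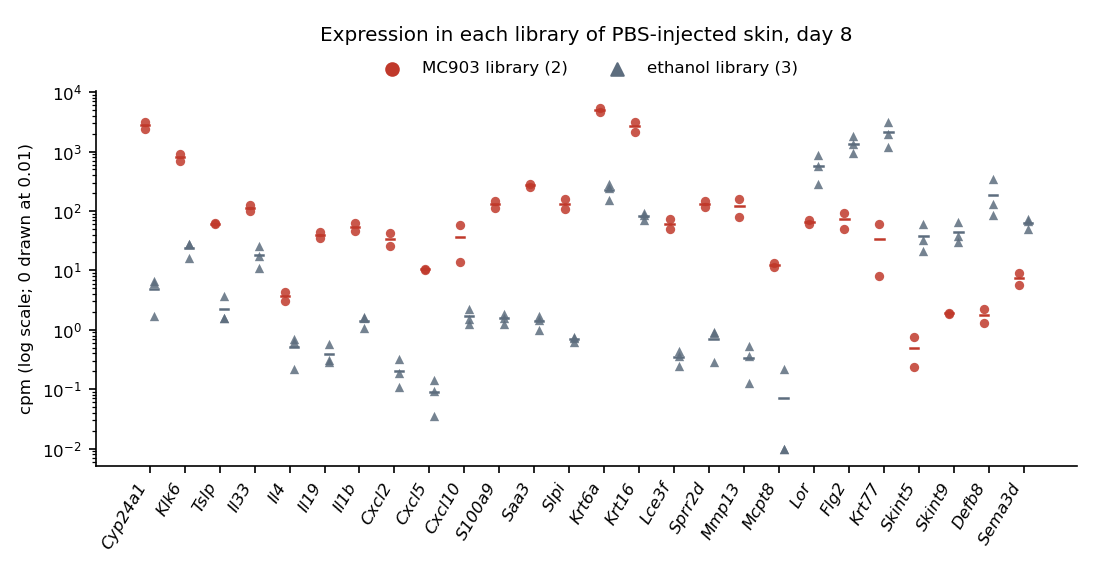
Level in cpm (log axis) of 26 genes in each PBS-injected skin library, with circles for the 2 MC903 and triangles for the 3 ethanol libraries, a bar at each group mean, and a level of 0 drawn at 0.01. Cyp24a1 lay at 2419 and 3114 cpm with MC903 and at most 6.59 cpm with ethanol, while Flg2 lay at 49.4 and 94.0 cpm with MC903 and at 957 cpm or more with ethanol.

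Genes of the IL-1, IL-6 and IL-20 families were among the steepest cytokine changes. Il1b, the inflammasome-processed cytokine of myeloid cells, was at 45.996 and 62.8 cpm with MC903 and at 1.06, 1.62 and 1.57 cpm with ethanol (5.27 ± 0.28, adjusted p = 0.00119 by edgeR's quasi-likelihood test). Il19, an IL-20 family cytokine made by keratinocytes and myeloid cells, was at 44.1 and 35.3 against 0.312, 0.575 and 0.286 cpm (6.66 ± 0.34). Il6 was at 9.21 and 8.87 against 0.0937, 0.216 and 0.251 cpm (5.59 ± 0.38), and Il24, also of the IL-20 family, was at least 132.5-fold higher. In these 4 genes the ethanol libraries were below 2 cpm and both MC903 libraries were far above them. The IL-1 and IL-36 list had 4 of 14 members called higher (Il1b, Nlrp3, Il1f8 and Il1a; median 0.69) and the IL-17, IL-22 and IL-20 list 3 of 13 (Il19, Il6 and Il24; median 0.65), with no member of either called lower. Leaving out MC903 libraries 1 and 2 and ethanol libraries 1, 2 and 3 in turn gave 3, 3, 1, 7 and 3 calls on the first list and 3, 3, 3, 5 and 3 on the second. Il17a had 0 counts in all 5 libraries. The IL-36 gene Il1f6 was at 3.78 and 2.07 against 0.9996, 2.77 and 0.931 cpm, and its groups overlapped.

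Chemokines that attract neutrophils rose as a group: 7 of 9 tested members of the list, which also holds their receptors and growth factors, were called higher and none lower (median 3.45). Cxcl1 was at 5.62 and 4.59 cpm with MC903 and at 0.4998, 0.575 and 0.322 cpm with ethanol (3.45 ± 0.33), and Cxcl2 at 25.6 and 41.96 against 0.187, 0.323 and 0.107 cpm (7.34 ± 0.44). Cxcl3 was at 7.04 and 9.85 against 0.0937, 0.216 and 0.322 cpm (5.33 ± 0.45), and Cxcl5 at 10.3 and 10.4 against 0.0937, 0.144 and 0.0358 cpm (6.76 ± 0.41). These 4 genes encode ligands of CXCR2, the main chemokine receptor of neutrophils, and in each of them both MC903 libraries were at least several times higher than any ethanol library. The receptor gene Cxcr2 itself rose (1.84 on the log2 scale), as did Csf3r, the receptor for the neutrophil growth factor G-CSF (16.1 and 14.9 against 2.66, 2.73 and 2.18 cpm, 2.62 ± 0.22), and Csf3 (G-CSF) was at least 7.14-fold higher. The calls numbered 5, 5, 3, 7 and 5 with MC903 libraries 1 and 2 and ethanol libraries 1, 2 and 3 left out in turn.

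The promoters of the genes for the CXCR2 ligands Cxcl1, Cxcl2 and Cxcl3, which lie close together on chromosome 5, are shown because they share a word bound by NF-kB. Each is the stretch from 250 bases before to 50 bases after the gene start, 5′ to 3′ on the gene's strand, from RefSeq on GRCm38.p6, and the capitals mark GGGAATTTC, searched together with GGGACTTTC on both strands and with overlaps counted. One of the words was present in 201 of 32851 promoters of this length (0.612%), and in 3 of the 5 called neutrophil-attracting genes that had a promoter entry. A match is a description of these letters.
Cxcl1 (chr5:90890995-90891294, plus strand): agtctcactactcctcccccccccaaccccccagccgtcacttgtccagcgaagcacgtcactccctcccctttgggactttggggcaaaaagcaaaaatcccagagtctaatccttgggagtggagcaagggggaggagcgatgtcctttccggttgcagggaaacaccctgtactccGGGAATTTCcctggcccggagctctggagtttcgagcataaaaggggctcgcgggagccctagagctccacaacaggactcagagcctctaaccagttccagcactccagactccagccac
Cxcl2 (chr5:90903649-90903948, plus strand): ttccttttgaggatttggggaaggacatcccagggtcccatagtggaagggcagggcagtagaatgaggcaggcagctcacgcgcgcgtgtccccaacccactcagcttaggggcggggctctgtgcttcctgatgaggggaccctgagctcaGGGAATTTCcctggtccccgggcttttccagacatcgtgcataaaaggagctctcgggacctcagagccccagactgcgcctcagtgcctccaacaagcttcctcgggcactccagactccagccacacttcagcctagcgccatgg
Cxcl3 (chr5:90785851-90786150, plus strand): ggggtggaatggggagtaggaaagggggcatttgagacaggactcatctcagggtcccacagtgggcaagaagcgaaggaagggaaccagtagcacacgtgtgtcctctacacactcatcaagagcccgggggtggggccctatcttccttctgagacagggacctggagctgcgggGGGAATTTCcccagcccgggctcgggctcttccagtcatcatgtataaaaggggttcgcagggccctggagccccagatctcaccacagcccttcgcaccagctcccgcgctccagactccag

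Among the CC chemokines and related genes, 9 of 22 were called higher and 1 lower (median 1.65). Ccl3 was at 20.6 and 27.7 cpm with MC903 and at 0.125, 0.180 and 0.0358 cpm with ethanol (7.68 ± 0.44, adjusted p = 0.00134 by edgeR's quasi-likelihood test), and Ccl4 at 14.4 and 23.8 against 0.219, 0.180 and 0.107 cpm (6.78 ± 0.40). Both attract monocytes, T cells and other leukocytes. The CCR2 ligands Ccl2, Ccl7 and Ccl12, which draw monocytes, rose by 2.84, 2.81 and 3.33 on the log2 scale. The gene that fell was Ccl27a, a skin chemokine made by keratinocytes that attracts CCR10-bearing T cells, at 12.9 and 14.5 against 30.4, 45.2 and 31.9 cpm (-1.38 ± 0.24, adjusted p = 0.034 by the same edgeR test). Its highest MC903 library was below its lowest ethanol library. The type 2 chemokine Ccl17 was at 3.31 and 2.74 against 0.250, 0.827 and 0.143 cpm and missed the threshold (adjusted p = 0.062 in edgeR). Ccl22 and the eotaxin Ccl11 overlapped between the groups (0.24 ± 0.40 and -0.40 ± 0.39). With MC903 libraries 1 and 2 and ethanol libraries 1, 2 and 3 left out in turn, the list held 3, 2, 2, 14 and 2 genes called higher, and a gene called lower was found only without ethanol library 2.

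Of the antimicrobial and alarmin peptides, 14 of 19 were called higher and none lower (median 4.42). Slpi, a secreted inhibitor of neutrophil elastase (chromosome 2, 164354070 to 164389095, GRCm38), was at 106 and 159 cpm with MC903 and at 0.718, 0.611 and 0.752 cpm with ethanol (7.58 ± 0.29, adjusted p = 0.000591 by edgeR's quasi-likelihood test). Saa3, an acute-phase protein, was at 282 and 255 against 0.9996, 1.73 and 1.43 cpm (7.61 ± 0.30). The ethanol libraries of both genes lay within a narrow range, far below both MC903 libraries. S100a8 and S100a9, whose products form calprotectin in neutrophils and stressed keratinocytes, were at 126.6 and 181 against 5.998, 2.95 and 12.7 cpm (4.42 ± 0.58) and at 111.6 and 149 against 1.25, 1.58 and 1.86 cpm (6.39 ± 0.27). Of the beta-defensins on the list, Defb4 rose from 0.125, 0.0719 and 0.0716 cpm to 20.4 and 11.7 cpm (7.40 ± 0.42), Defb14 had a log2 fold change of 6.38 ± 0.40, and Defb3 was at least 6.04-fold higher. Lcn2, which withholds iron from bacteria, Chil1 and the WAP protein gene Wfdc12 rose by 4.09, 4.04 and 6.99 on the log2 scale. Leaving out MC903 libraries 1 and 2 and ethanol libraries 1, 2 and 3 in turn gave 12, 11, 9, 15 and 12 calls.

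The epidermal differentiation genes split in opposite directions. Of 35 tested, 12 were called higher and 4 lower (median 0.75). With MC903 libraries 1 and 2 and ethanol libraries 1, 2 and 3 left out in turn, 11, 11, 9, 16 and 13 were called higher and 0, 1, 0, 5 and 3 lower. The genes that rose were late cornified envelope genes of the Lce3 group and small proline-rich genes, which are known to be switched on in wounded or inflamed epidermis. Lce3f was at 73.95 and 48.7 cpm with MC903 and at 0.250, 0.431 and 0.358 cpm with ethanol (7.47 ± 0.33, adjusted p = 0.000591 by edgeR's quasi-likelihood test), and Sprr2d at 116.9 and 146 against 0.906, 0.899 and 0.286 cpm (7.55 ± 0.45). Both MC903 libraries were far above the ethanol range in each. Counted over every annotated member, a step taken after the values had been seen, 6 of 6 Lce3 genes (median 6.82) and 11 of 13 Sprr2 genes (median 7.28) were called higher. These families, like the stefins below, hold near-identical copies, so the split of reads among their members is uncertain. The genes that fell were Flg2, Lor, Lce1m and Dsg1a. Flg2, a filaggrin relative (chromosome 3, 93197278 to 93221391, GRCm38), was at 49.4 and 94.0 cpm with MC903 and at 1794, 1314 and 957 cpm with ethanol (-4.23 ± 0.48, adjusted p = 0.00813 in edgeR). Lor (loricrin), the main cornified envelope protein, was at 70.6 and 59.6 against 568, 876 and 282 cpm (-3.14 ± 0.51). Lce1m was at 3.64 and 7.29 against 215, 466 and 124.7 cpm (-5.60 ± 0.75), and the desmosomal cadherin Dsg1a at 306 and 360.3 against 913, 835 and 796 cpm (-1.34 ± 0.24). In these 4 genes every MC903 library was below every ethanol library. Lce1m did not stand for its family: of 14 Lce1 genes, counted after the values had been seen, Lce1g and Lce1e were called higher and Lce1m alone lower (median 0.18). Ivl (involucrin) had -1.78 ± 0.52 with an adjusted p of 0.135 in edgeR, and Flg itself was listed with at most 18 counts in any library and gave -0.22 ± 0.59.

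Keratins followed the same split. The stress keratins Krt6a, Krt6b and Krt16, markers of wounded and hyperproliferative epidermis, were at 5414 and 4573 against 246, 150.5 and 288 cpm (4.46 ± 0.37), at 4305 and 3036 against 65.7, 34.6 and 64.4 cpm (6.07 ± 0.42) and at 3175 and 2114 against 85.1, 70.9 and 90.9 cpm (5.01 ± 0.31). Krt14, the basal layer keratin, was at 7551 and 5603 against 1116, 1180.5 and 1157 cpm (2.52 ± 0.27), whereas its partner Krt5 had a log2 fold change of 0.20 ± 0.24 and was not called. Suprabasal Krt77 was at 8.08 and 59.6 against 1989.5, 3084 and 1208 cpm (-5.93 ± 1.05, adjusted p = 0.0337 by edgeR's quasi-likelihood test), and Krt10 at 595 and 331 against 2731, 3716 and 1490.0 cpm (-2.51 ± 0.50, adjusted p = 0.0487). Every MC903 library of both genes was below the ethanol range, although the MC903 libraries of Krt77 differed from each other more than 5-fold. Krt1 had 0.36 ± 0.48 and was not called. Of 17 keratins, 4 were called higher and 2 lower (median 0.20), and the fits without MC903 libraries 1 and 2 and ethanol libraries 1, 2 and 3 gave 3, 4, 2, 4 and 4 calls higher and 0, 1, 0, 4 and 1 lower. Of the 30 cell cycle genes none was called by edgeR or DESeq2 (median 0.31), and 1 had an unadjusted p under 0.05 in edgeR.

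Of 28 barrier lipid genes, 2 were called higher and 4 lower (median 0.30). Among the lower genes were the epidermal lipases Lipk, Lipn and Lipm, with log2 fold changes of -1.84 ± 0.23, -2.28 ± 0.39 and -1.09 ± 0.19, and the other was the lipoxygenase Alox12e at 23.5 and 31.8 against 107, 141 and 95.4 cpm (-2.03 ± 0.27, adjusted p = 0.0128 by edgeR's quasi-likelihood test). The higher genes were Ugcg, the glucosylceramide synthase (1.21 ± 0.21), and Awat1, a wax synthase of sebaceous glands (1.91 ± 0.38). Sebaceous gland markers summed to 4703 and 3646 cpm with MC903 and to 1385 to 1524 cpm with ethanol, and 3 of 11 were called higher. Fabp5 alone gave 2602 and 1934 cpm of the MC903 sums and 432, 289.6 and 558 cpm of the ethanol sums (2.42 ± 0.34). The sums thus leaned on this gene and do not measure sebaceous tissue as such. Elovl3 (1.28 ± 0.23) and Awat1 were the others called. Without MC903 libraries 1 and 2 and ethanol libraries 1, 2 and 3 the barrier lipid list held 0, 0, 0, 7 and 1 higher and 0, 0, 0, 5 and 5 lower calls, and the sebaceous list 0, 0, 0, 6 and 1 higher calls.

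Proteases and their inhibitors rose widely, with 13 of 25 listed genes called higher and none lower (median 2.10), and 11, 11, 5, 17 and 12 when MC903 libraries 1 and 2 and ethanol libraries 1, 2 and 3 were left out in turn. Next to Klk6 and Klk13, the kallikreins Klk9, Klk8 and Klk7, the last of which cleaves the bridges between corneocytes, had log2 fold changes of 4.11 ± 0.36, 3.15 ± 0.30 and 2.10 ± 0.25. The cysteine protease inhibitor Stfa1 (stefin A1) was at 1692 and 629 cpm with MC903 and at 2.75, 4.53 and 2.11 cpm with ethanol (8.54 ± 0.61, adjusted p = 0.00181 by edgeR's quasi-likelihood test), and its neighbour BC100530 at 5509 and 1887 against 9.22, 14.6 and 8.73 cpm (8.42 ± 0.61). MC903 library 1 was higher than MC903 library 2 in these genes, and both lay far above all ethanol libraries. All 8 genes of the stefin A cluster, a family counted after its values were seen, were called higher (median 7.19). Serpinb3a and Serpina3n, inhibitors of serine and cysteine proteases, had 3.39 ± 0.49 and 2.64 ± 0.39.

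Of the matrix remodelling genes, 8 of 29 were called higher and none lower (median 0.36), and 5, 4, 3, 12 and 6 were called when MC903 libraries 1 and 2 and ethanol libraries 1, 2 and 3 were left out in turn. Mmp13, a collagenase (chromosome 9, 7272514 to 7283331, GRCm38), was at 78.96 and 159 cpm with MC903 and at 0.125, 0.539 and 0.358 cpm with ethanol (8.47 ± 0.57, adjusted p = 0.00175 by edgeR's quasi-likelihood test). Mmp10, a stromelysin of migrating keratinocytes, was at 16.5 and 16.7 against 0.4998, 0.431 and 0.501 cpm (5.11 ± 0.24). The MC903 libraries of Mmp10 were almost equal, while those of Mmp13 differed about 2-fold, and neither gene overlapped with ethanol. The gelatinase Mmp9, the metalloproteinase inhibitor Timp1 and the urokinase receptor Plaur had 3.57 ± 0.50, 4.83 ± 0.28 and 3.01 ± 0.31.

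Of 28 genes for itch mediators and axon guidance, 6 were called higher and 1 lower (median 0.36), and without MC903 libraries 1 and 2 and ethanol libraries 1, 2 and 3 the higher calls numbered 4, 3, 1, 10 and 4. Hdc, the enzyme that makes histamine, was at 43.5 and 50.4 cpm with MC903 and at 2.28, 3.31 and 1.65 cpm with ethanol (4.29 ± 0.31, adjusted p = 0.00183 by edgeR's quasi-likelihood test). Ptgs2 (COX-2) was at 292 and 168 against 2.37, 3.88 and 1.43 cpm (6.49 ± 0.48), and Ptges, which makes prostaglandin E, at 217 and 184 against 27.7, 33.8 and 16.9 cpm (2.95 ± 0.31). All MC903 libraries of these enzymes lay above the ethanol range by more than 5-fold. Tph1, the serotonin-producing enzyme of mast cells, Sema3a and the substance P receptor Tacr1 rose by 3.24, 1.71 and 1.60 on the log2 scale. Sema3d, a secreted axon guidance molecule, fell from 71.9, 68.3 and 48.9 cpm to 5.76 and 9.10 cpm (-3.07 ± 0.31, adjusted p = 0.00554 in edgeR). The neurotrophic factor Artn was at 1.65 and 0.865 against 0.125, 0.503 and 0.251 cpm and missed the threshold (adjusted p = 0.129 in edgeR). The summed markers of sensory neurons were 67.3 and 65.8 cpm with MC903 and 16.1 to 33.5 cpm with ethanol, and none of the 14 was called by edgeR or DESeq2, although 3 had an unadjusted p under 0.05 in edgeR.

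Markers of infiltrating leukocytes rose unevenly. Neutrophil markers had 12 of 17 members called higher (median 4.09) and summed to 452 and 615 cpm with MC903 against 64.1 to 103 cpm with ethanol. Of the MC903 sums, S100a8 gave 126.6 and 181 cpm and S100a9 111.6 and 149 cpm. Stressed keratinocytes also make both, so the sum is not a count of neutrophils. Clec4e and Trem1, receptors of neutrophils and other myeloid cells, were at least 64-fold and 33.4-fold higher. Clec4d was at 9.26 and 11.1 against 0.187, 0.359 and 0.0716 cpm (5.61 ± 0.49), and the groups did not overlap. The granulocyte antigen gene Ly6g had 1 and 5 counts with MC903 and 1, 0 and 0 counts with ethanol and was too low to test. Monocyte and macrophage markers had 8 of 20 called higher (median 1.40), among them Arg1 at 183 and 198 against 32.9, 28 and 33.9 cpm (2.60 ± 0.18), Chil3 at 27.01 and 73.4 against 0.437, 0.503 and 0.143 cpm (7.11 ± 0.62), the scavenger receptor Msr1 (2.81 ± 0.33) and Cd68 (1.77 ± 0.24). Leaving out MC903 libraries 1 and 2 and ethanol libraries 1, 2 and 3 in turn gave 10, 8, 4, 13 and 10 calls on the neutrophil list and 3, 2, 1, 13 and 8 on the macrophage list.

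Basophil and mast cell markers had 4 of 17 called higher (median 1.40). The basophil protease Mcpt8 was at 11.2 and 13.4 cpm with MC903 and at 0, 0.216 and 0 cpm with ethanol (7.40 ± 0.84, adjusted p = 0.00831 by edgeR's quasi-likelihood test), and Fcer1a, the IgE receptor chain, at 5.71 and 6.39 against 0.375, 0.611 and 0.0716 cpm (4.09 ± 0.60). Both genes were below 1 cpm in all ethanol libraries and above 5 cpm in both MC903 libraries. Among T cell and innate lymphoid markers, 8 of 29 were called higher and 1 lower (median 1.18). Cd4 was at 5.24 and 4.06 against 0.968, 0.647 and 0.644 cpm (2.62 ± 0.32), Cd8a at 3.45 and 1.54 against 0.250, 0.359 and 0.251 cpm (3.10 ± 0.46), Foxp3, the regulatory T cell factor, had 2.23 ± 0.36, and Gzmb, a granzyme of cytotoxic cells, 5.71 ± 0.66. Each of them lay above the ethanol range in both MC903 libraries. Trdc, the constant region of the delta T cell receptor, fell (log2 fold change -1.67 ± 0.34, adjusted p = 0.0494 in edgeR), and Cd3e, carried by all T cells, was at 1.79 and 1.77 against 2.66, 2.23 and 2.29 cpm and was not called. In the fits without MC903 libraries 1 and 2 and ethanol libraries 1, 2 and 3, the basophil and mast cell list held 2, 2, 1, 12 and 3 calls and the T cell list 1, 1, 0, 16 and 3 higher calls. Of 8 eosinophil and 10 B cell markers none was called by edgeR, 3 and 5 had an unadjusted p under 0.05, and DESeq2 called 2 and 4.

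Langerhans cells and dendritic cells gave 1 call in each direction among 18 markers (median 0.01). Itgax (CD11c) was at 15.6 and 21.1 cpm with MC903 and at 2.81, 4.31 and 2.15 cpm with ethanol (2.58 ± 0.34, adjusted p = 0.0128 by edgeR's quasi-likelihood test). Cd207 (langerin), the defining gene of Langerhans cells, was at 1.37 and 0.790 against 5.84, 9.96 and 4.98 cpm (-2.68 ± 0.45, adjusted p = 0.0285 in edgeR). The 2 genes moved in opposite directions, each without overlap of its groups. Neither call held without ethanol library 1 or MC903 library 2, and that of Cd207 did not hold without MC903 library 1. Endothelial adhesion molecules that capture leukocytes were higher: Sele (E-selectin) at 13.9 and 15.8 against 1.78, 2.08 and 1.54 cpm (3.05 ± 0.24), Vcam1 at 28.8 and 25.2 against 4.69, 4.92 and 3.69 cpm (2.61 ± 0.22), and Selp and Icam1 with 2.69 ± 0.37 and 1.39 ± 0.20. These were the 4 calls among 12 endothelial markers (median 0.95), which became 2, 2, 0, 8 and 3 without MC903 libraries 1 and 2 and ethanol libraries 1, 2 and 3 in turn.

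Interferon-induced genes had 14 of 27 members called higher and none lower (median 2.31). Isg15, a ubiquitin-like antiviral protein, was at 25.03 and 70.7 cpm with MC903 and at 2.56, 5.86 and 3.87 cpm with ethanol (3.56 ± 0.52, adjusted p = 0.0183 by edgeR's quasi-likelihood test). Oas1a, an antiviral sensor, was at 20.3 and 33.7 against 1.97, 3.92 and 1.72 cpm (3.43 ± 0.42), and the guanylate-binding protein gene Gbp2 at 77.6 and 329.8 against 15.2, 27.2 and 11.2 cpm (3.53 ± 0.65). In all 3 genes MC903 library 2 was higher than MC903 library 1, and both were above the ethanol range. Stat2, which relays the interferon signal, and the factor Irf7 rose by 1.76 and 2.31 on the log2 scale. Cxcl9 and Cxcl10, chemokines that draw CXCR3-bearing T cells and are induced by interferons, were at 41.1 and 132.8 against 2.66, 7.33 and 3.08 cpm (4.34 ± 0.64, adjusted p = 0.0187 in edgeR) and at 13.8 and 58.7 against 1.25, 2.26 and 1.503 cpm (4.46 ± 0.63, adjusted p = 0.0164 in edgeR). Again MC903 library 2, the one with the high gland sum, had the higher level of the pair. Cxcl11 and the receptor Cxcr3 had 1.94 ± 0.64 and 1.37 ± 0.37 and were not called, and Ifng itself was at 0.283 and 2.33 against 0, 0.323 and 0 cpm and was not called. The calls on this list rested on few libraries: 12 were called without MC903 library 1, 0 without MC903 library 2, 0 without ethanol library 1, 1 without ethanol library 3 and 26 without ethanol library 2. The CXCR3 list held 2 calls in the first of these fits, 1 without MC903 library 2, 0 without ethanol library 1 or 3, and 3 without ethanol library 2.

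The promoters of Isg15, Cxcl10 and Cxcl9 are shown because each holds letters of the core of an interferon-stimulated response element. The windows, build and source are those given above for the CXCR2 ligands, and the capitals mark GAAANNGAA on either strand, overlaps counted. The core was present in 2812 of 32851 promoters (8.56%) and in 6 of the 9 called interferon-induced genes with a promoter entry (66.7%). Isg15 held 3 overlapping matches and the chemokine genes 1 each, which describes these letters and not a site in use.
Isg15 (chr4:156200769-156201068, minus strand): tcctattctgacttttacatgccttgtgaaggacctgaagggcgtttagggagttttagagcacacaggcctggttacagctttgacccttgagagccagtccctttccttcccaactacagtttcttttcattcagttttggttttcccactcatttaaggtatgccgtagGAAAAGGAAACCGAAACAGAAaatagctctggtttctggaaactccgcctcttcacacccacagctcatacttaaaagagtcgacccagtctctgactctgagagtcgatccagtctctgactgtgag
Cxcl10 (chr5:92348840-92349139, minus strand): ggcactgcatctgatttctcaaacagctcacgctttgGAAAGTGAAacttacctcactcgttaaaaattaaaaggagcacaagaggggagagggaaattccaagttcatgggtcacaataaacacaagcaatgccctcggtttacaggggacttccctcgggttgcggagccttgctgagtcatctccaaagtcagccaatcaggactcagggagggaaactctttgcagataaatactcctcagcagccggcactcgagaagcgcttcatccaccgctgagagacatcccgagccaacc
Cxcl9 (chr5:92328030-92328329, minus strand): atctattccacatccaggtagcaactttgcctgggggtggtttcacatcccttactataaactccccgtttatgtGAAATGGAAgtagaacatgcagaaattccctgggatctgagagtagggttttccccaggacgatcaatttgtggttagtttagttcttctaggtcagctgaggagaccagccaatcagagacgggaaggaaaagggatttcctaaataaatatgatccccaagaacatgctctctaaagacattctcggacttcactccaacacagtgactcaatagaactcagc

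Some of the largest falls were in families that no list covered, and they were counted after their values had been seen. Skint genes, butyrophilin-like genes of the epidermis and thymus whose founding member is known for the selection of epidermal gamma delta T cells, were negative in all 11 tested members (median -3.31), and 8 were called lower. Skint5 (chromosome 4, 113477891 to 113999503, GRCm38) was at 0.236 and 0.752 cpm with MC903 and at 32.4, 60.3 and 21.4 cpm with ethanol (-6.19 ± 0.71, adjusted p = 0.0084 by edgeR's quasi-likelihood test), and Skint9 at 1.84 and 1.92 against 37.1, 64.5 and 30.2 cpm (-4.53 ± 0.42). In each the highest MC903 library was far below the lowest ethanol library. Of the Mas-related receptor genes and pseudogenes of the Mrgprb group, 3 of 5 were called lower: Mrgprb3, which encodes a receptor, and the pseudogenes Mrgprb9-ps and Mrgprb11-ps. Mrgprb3 was at 0.0472 and 0.0376 cpm with MC903, which is at or under 1 count per library, and at 5.44, 7.40 and 2.51 cpm with ethanol, at least 40.2-fold lower. Defb8 and Defb7 fell (-6.69 ± 0.82 and -6.15 ± 1.11) while Defb4, Defb14 and Defb3 rose, so the 10 tested beta-defensin genes held 4 calls in one direction and 2 in the other.

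Other genes with large changes or small p-values were on none of the lists discussed above. Akr1d1, a steroid 5-beta-reductase, was at 191 and 98.5 cpm with MC903 and at 0.656, 0.431 and 0 cpm with ethanol (8.60 ± 0.85, adjusted p = 0.00484 by edgeR's quasi-likelihood test). Cdhr1, a cadherin-related protein, was at 101 and 108 against 0.437, 0.359 and 0.0716 cpm (8.46 ± 0.49), and Rbp2, a retinol carrier, at 160.2 and 141 against 6.28, 5.18 and 6.98 cpm (4.62 ± 0.21). Acod1, which makes itaconate in activated macrophages, was at least 168-fold higher. All 4 were clear of the ethanol range in both MC903 libraries. Among genes that fell, Hal, the histidase that makes urocanic acid in the cornified layer, was at 16.1 and 12.6 against 132.7, 142 and 85.8 cpm (-3.06 ± 0.30), the clock output factor Hlf at 5.01 and 5.87 against 49.9, 56.4 and 30.6 cpm (-3.06 ± 0.33) and the transporter Abca5 at 7.37 and 10.3 against 58.6, 58.98 and 40.2 cpm (-2.56 ± 0.28). The serpin Serpina3b was at 1.7 and 1.13 against 39.7, 36.6 and 20.98 cpm (-4.52 ± 0.41), in contrast to the rise of Serpina3n. Every ethanol library of these 4 genes was above both MC903 libraries.

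Some large rises lay in genes of salivary and lacrimal glands. Of the 10 gland markers, 5 were called higher (median 5.52), and without MC903 library 2, ethanol library 1 or ethanol library 3 none was. Bpifa2, a salivary protein, was at 216 and 5945 cpm with MC903 and at 51.4, 27.3 and 23.7 cpm with ethanol (6.52 ± 1.28, adjusted p = 0.0467 by edgeR's quasi-likelihood test). Klk1 and Scgb2a2, also gland secretions, were at least 97.3-fold and 84.1-fold higher, with 1.13 and 18.9 and 1.37 and 15.9 cpm in MC903 libraries 1 and 2. Bpifa2 is itself part of the gland sum, which was 359 and 10181 cpm in these libraries. Klk1 and Scgb2a2 are not part of it, and they too were higher in MC903 library 2. With the log2 of the gland sum as a covariate, an alternative added after the data were seen, 86 genes were called in all. In that fit the antimicrobial list held 6 calls, the cornification list 10 higher calls and the interferon-induced list none. Both MC903 gland sums lay above every ethanol sum, so gland RNA and treatment cannot be told apart by this fit. The covariate also used up a residual degree of freedom.

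The MC903 effect in PBS-injected skin was set beside that in uninjected skin, where 6125 of 26175 genes were called (23.4%). The 2 comparisons share no library. Of the 973 genes called after PBS injection, 937 were tested in uninjected skin, 924 of those had the same direction (98.6%), and 882 were called in that direction (94.1%). None was called in the opposite direction. The median log2 fold change of the genes called higher was 2.31 after PBS and 2.02 in uninjected skin, and that of the genes called lower was -2.02 and -1.58. The medians after PBS come from the libraries that chose these genes. The difference between the effects was called for 4 of 27367 genes (0.0146%), with 725 at an unadjusted p under 0.05. In all 4 the mean was higher with MC903 than with ethanol after PBS and lower with MC903 in uninjected skin, where their levels were low. Mucl2 had a difference of 9.16 ± 1.08 (adjusted p = 0.00797 by edgeR's quasi-likelihood test of the interaction), with 191 and 1143 cpm in the PBS MC903 libraries, 3.59, 7.40 and 1.36 cpm in the PBS ethanol libraries and at most 0.788 cpm in any uninjected library. Lipo1 (6.81 ± 0.96), Mup4 (7.72 ± 1.11) and Dnase1 (5.12 ± 0.76) were the others. Of the PBS libraries, MC903 library 2 had the highest level of all 4. In aGr1 ethanol libraries 1 to 4, where gland markers took 19.5, 31.4, 4.62 and 8.24% of all counts, Dnase1 was at 6130, 9710.2, 1004 and 4128 cpm and Lipo1 at 0.582, 0.204, 0.131 and 4183 cpm. Mucl2 was at 56.6, 9.77, 2.32 and 50363 cpm in the same libraries and Mup4 at 17.6, 25.9, 1.40 and 8869 cpm. In the first 3 of these libraries Dnase1 was above both PBS MC903 libraries, and Mucl2, Mup4 and Lipo1 were below both. In aGr1 ethanol library 4 all 4 genes were above both. The part of gland RNA in these differences was not tested. The labels name no batch for the PBS libraries, so injection and any batch cannot be told apart. Neither of the 2 sets of uninjected libraries, which differ in the style of their titles, alone gave a call against PBS, with 1059 and 1107 genes at an unadjusted p under 0.05, and none was called without ethanol library 1.

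**Figure D4:**
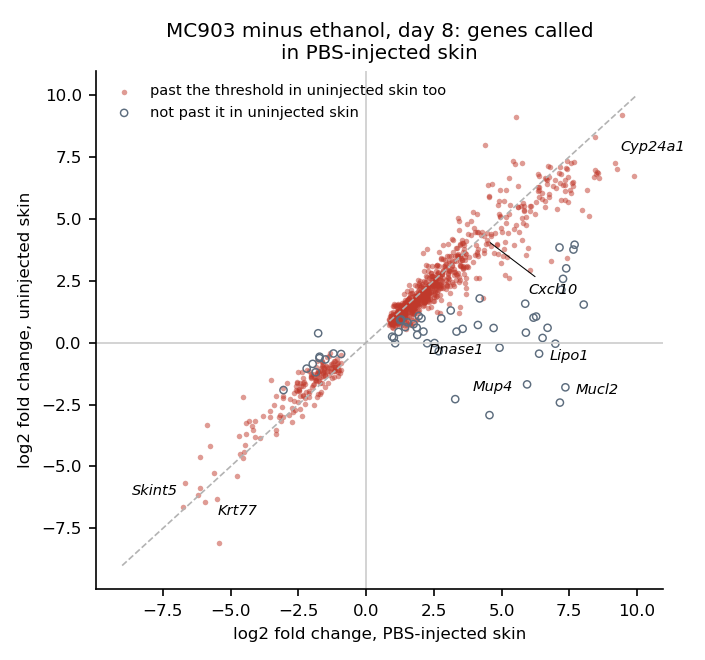
Log2 fold change (MC903 over ethanol) in PBS-injected skin (x axis) against that in uninjected skin (y axis) for the genes called after PBS injection and tested in both, one point per gene. Of 937 genes, 924 lie on the same side of 0 on both axes, and Mucl2, Mup4, Lipo1 and Dnase1 lie away from the rest.

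Against aGr1-injected skin, the antibody group for which these mice were the vehicle control, the same count was made. There 8242 of 25287 genes were called (32.6%). Of the 973 genes called after PBS, 818 had the same direction (84.1%), 743 were called in it (76.4%) and 49 were called in the opposite direction. All 49 were among the 797 genes higher after PBS, whereas 176 of the 176 lower genes had the same direction with aGr1 and 174 of them were called (98.9%). The difference between the effects was called for 62 of 26712 genes (0.232%), with 2806 at an unadjusted p under 0.05. In 61 of them (0.228%) the effect was more positive after PBS, and in 1 (0.00374%) it was more negative. Of the 61 genes, 14 were on the interferon-induced list and 2 on the CXCR3 list.

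Cxcl10 ranged from 13.8 to 58.7 cpm in PBS MC903 skin and from 1.25 to 2.26 cpm in PBS ethanol skin, against 1.19 to 2.47 cpm in aGr1 MC903 skin and 1.85 to 5.04 cpm in aGr1 ethanol skin (difference of effects 5.29 ± 0.76 on the log2 scale, adjusted p = 0.0226 by edgeR's quasi-likelihood test of the interaction). In uninjected MC903 skin it ranged from 6.72 to 96.6 cpm. The lowest PBS MC903 library was thus above the highest aGr1 MC903 library, while PBS and uninjected MC903 libraries overlapped. Cxcl9 ranged from 41.1 to 132.8 cpm in PBS MC903 skin and from 2.34 to 4.71 cpm in aGr1 MC903 skin (difference 5.45 ± 0.83). Isg15 ranged from 25.03 to 70.7 cpm and from 1.93 to 2.88 cpm in the same groups (difference 4.94 ± 0.61), and Oas1a from 20.3 to 33.7 cpm and from 2.96 to 5.63 cpm (difference 4.12 ± 0.50). For each of these genes the aGr1 ethanol libraries reached higher levels than the PBS ethanol libraries, so both arms entered the difference.

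**Figure D5:**
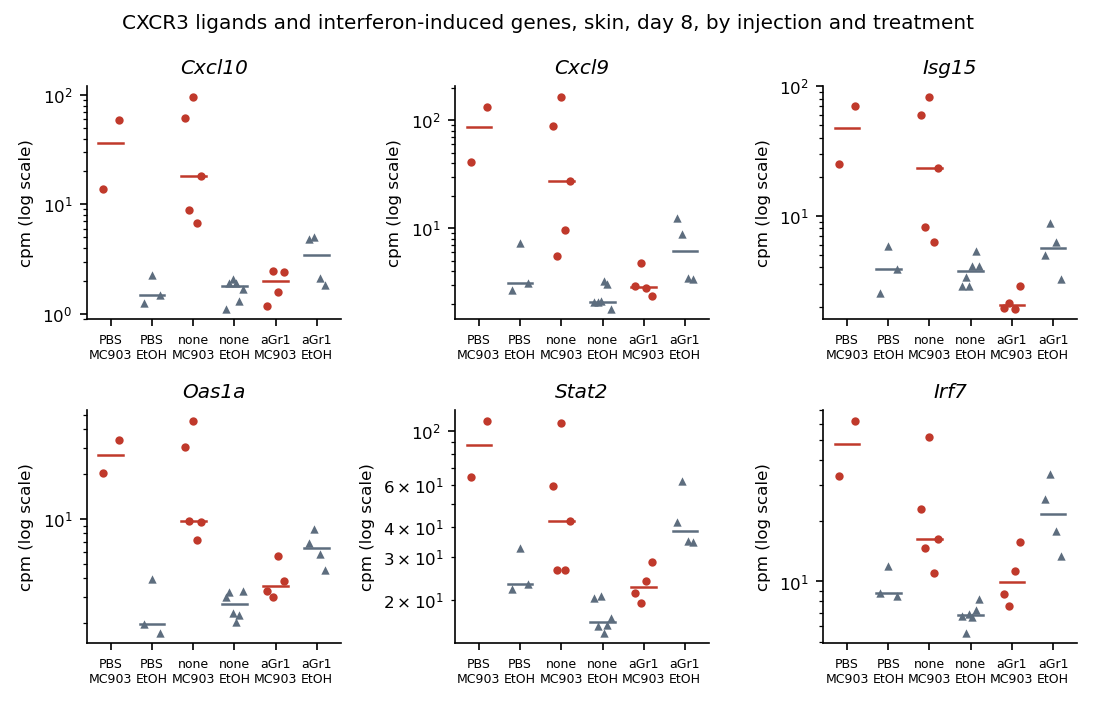
Level in cpm (log axis) of Cxcl10, Cxcl9, Isg15, Oas1a, Stat2 and Irf7 in each day 8 wild-type skin library, by injection group (PBS, none, aGr1) and treatment, with a bar at the group median. Both PBS MC903 libraries lie above all 4 aGr1 MC903 libraries, from 13.8 against at most 2.47 cpm for Cxcl10, and for Cxcl10, Cxcl9, Isg15 and Oas1a they lie within the range of the uninjected MC903 libraries.

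The lowest PBS MC903 library was above the highest PBS ethanol library in 59 of the 61 genes and above the highest aGr1 MC903 library in 42. The 61 genes were chosen by a test on these same libraries, so such counts over them are partly built in. Over all genes tested after PBS, the MC903 libraries lay above the ethanol libraries without overlap in 21.2%. The share over all genes was not counted for the comparison with aGr1 MC903 or for the ethanol medians below, so those counts have no background. In 21 of the 61 the median aGr1 ethanol level was more than 10 times the median PBS ethanol level, and in 27 it was within 3 times. Wfdc12, for example, was at 119.4 to 1248 cpm in aGr1 ethanol skin and at 0.750 to 1.44 cpm in PBS ethanol skin (difference 10.40 ± 1.26). Gland markers took 4.62 to 31.4% of all counts in the aGr1 ethanol libraries, 0.00595 to 0.0124% in the PBS ethanol libraries and 0.0392 and 1.09% in the PBS MC903 libraries. The gland sum was higher with MC903 after PBS and lower with MC903 after aGr1, without overlap. As a covariate it therefore cannot be told apart from the difference of effects. With the log2 of the gland sum as a covariate, or without the 2 aGr1 ethanol libraries with the highest gland sum, no gene was called for the difference, with 399 and 1905 genes at an unadjusted p under 0.05. No gene was called either without aGr1 MC903 library 1, aGr1 MC903 library 2, PBS MC903 library 2 or PBS ethanol library 1 (1783 to 2385 genes at an unadjusted p under 0.05). Without PBS ethanol library 3, 1 gene that is not among the 62 was called, and 399 genes were called without aGr1 ethanol library 3. DESeq2 called 606. Of the 19 neutrophil and 20 macrophage markers tested, the difference was called for 1 each (median difference -0.05 and 0.25), and the neutrophil marker sum in MC903 skin was 452 and 615 cpm after PBS and 393 to 523 cpm after aGr1. The neutrophil marker was Clec4e, which ranged from 6.38 to 6.81 cpm in PBS MC903 skin, from 1.85 to 3.38 cpm in aGr1 MC903 skin and from 2.37 to 12.3 cpm in uninjected MC903 skin, and the macrophage marker was the Fc receptor Fcgr1, at 11.6 to 12.2 cpm after PBS and 3.40 to 5.78 cpm after aGr1. For the CXCR2 ligands Cxcl1, Cxcl2, Cxcl3 and Cxcl5 no difference was called: the log2 fold changes were 3.45, 7.34, 5.33 and 6.76 after PBS beside 3.16, 6.29, 5.48 and 7.91 after aGr1, with differences of 0.24 ± 0.66, 0.995 ± 1.15, -0.20 ± 0.81 and -1.23 ± 1.35. Taken at 2 standard errors, each of these 4 differences spans more than 2-fold to either side. No difference was called for Cyp24a1 (-0.21 ± 0.83), Tslp (-0.61 ± 0.71) or the basophil protease Mcpt8 (-0.90 ± 1.33).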

How the data were processed

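Poly(A)-selected RNA of cheek skin was sequenced with single-end reads on an Illumina HiSeq4000. The authors aligned reads to mm10 with Bowtie2 and TopHat and deposited raw read counts per gene from htseq-count, 1 value per gene and library; the annotation release and the strand setting were not given in the sources used here. Lines for reads on no gene or on several genes were left out of library sizes. Of 46078 listed genes, 45143 matched GENCODE M21 on GRCm38, which gave symbols and positions.

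The 2 MC903 and 3 ethanol libraries were compared with edgeR 4.0.16 (R 4.3.3; quasi-likelihood F test, TMM scaling, genes with at least 10 counts in total, Benjamini-Hochberg adjusted p under 0.05). Differences of effects were interaction terms over the PBS and uninjected or the PBS and aGr1 libraries, with a term for each of 2 sets of uninjected libraries, told apart by the style of their titles. DESeq2 1.42.0, other scaling and filters, and leaving out each library were alternatives. Printed cpm use TMM factors over the 24 day 8 wild-type skin libraries. A gene with at most 3 counts in every library of a group is given as an at-least fold against 3 counts per library. A floor of this kind covers counting error only. Pairs of PBS libraries differed by more than sampling noise, so none of these was treated as a duplicate. The other groups were not examined in this way. In a set of uninjected libraries, MC903 titles repeat replicate number 1 and ethanol titles repeat number 3, under different sample names. All of these were counted as separate libraries.

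Genes were named by rule: among called, non-overlapping genes averaging at least 5 cpm, the 12 per direction with the largest change and the 8 with the smallest p, the called members of each list with the smallest p (up to 6), those called for a difference, and a fixed panel of 37 genes. Some genes that this rule names are not reported here. Further list members were named after their values were seen. The members and lists were chosen with earlier results of these data known. The scripts' tests were checked on simulated counts. Promoters came from RefSeq. The authors' tables of comparisons were not used.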

Additional observations from a re-analysis of the deposited data

Results flagged for a closer look

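Differences between the MC903 effect after PBS and the effect in another group were called for 4 genes against uninjected skin and for 62 genes against aGr1-injected skin (edgeR's quasi-likelihood test of the interaction). Each difference is the effect after PBS minus that in the other group. The 4 were Mucl2 (9.16 on the log2 scale), Lipo1 (6.81), Mup4 (7.72) and Dnase1 (5.12). Among the 62, interferon-induced genes had differences of 4.12 (Oas1a), 4.94 (Isg15), 4.53 (Oasl2), 2.91 (Oas2), 2.85 (Oas3), 3.92 (Oasl1), 4.77 (Mx1), 3.64 (Usp18), 4.12 (Gbp2), 3.36 (Irgm1), 4.01 (Zbp1), 3.37 (Irf7) and 2.64 (Stat2). The CXCR3 ligands had 5.45 (Cxcl9) and 5.29 (Cxcl10), and the apolipoprotein L gene Apol9a had 5.73. Leukocyte genes had 4.28 (Clec4e), 2.39 (Fcgr1), 7.73 (Cd8a) and 9.02 (Igkc). The aGr1 ethanol libraries entered the last 2 strongly. Igkc ranged from 19.1 to 347 cpm in aGr1 ethanol and from 0.340 to 2.05 cpm in aGr1 MC903 skin, and it was not called after PBS. Cd8a ranged from 0.767 to 10.9 cpm in aGr1 ethanol and from 0.0425 to 0.342 cpm in aGr1 MC903 skin, beside 1.54 and 3.45 cpm in PBS MC903 skin. Genes that gland epithelia are known to express had 10.40 (Wfdc12), 16.65 (Klk1), 5.93 (Aqp5), 6.68 (Gjb1) and 8.22 (Pax9). The gland RNA of the aGr1 ethanol libraries moved with the group, and its part in these differences was not tested beyond the fits given with the comparison.

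Single libraries of the aGr1 groups stood far from the rest of their group. The gap of the highest library to its neighbour took 0.952 of the range of the gland marker sum in aGr1 MC903 library 3, 0.999 of the range of Mucl2 in aGr1 MC903 library 4 and again 0.999 in aGr1 ethanol library 4, and 0.855 of the range of Dnase1 in aGr1 MC903 library 3. These were 4 of 16 ratios, from 8 related measures in the same 2 groups. Chance alone flags about 1 in 20 groups, but measures chosen from called genes and sharing libraries cannot be set against that rate. Groups of 2 and 3, which include all PBS libraries, were not examined in this way.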

How the results depend on the processing

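All 973 genes called after PBS injection kept their direction in every alternative that gave a value, but the number of calls did not hold. It was 908 with RLE size factors, 987 with filterByExpr, 1342 without a filter, 941 above 2-fold, 2116 with DESeq2, 1946 in 1 fit with the aGr1 libraries, 2119 in 1 fit over 24 libraries and 86 with the gland covariate, which was chosen after seeing the data. Leaving out single libraries gave 101 to 2172. The higher share of the calls was 81.9% in the main analysis, 63.3% with DESeq2, 60.7% and 63.2% in the joint fits. The cause of these shifts was not tested. The fits with a library left out also had fewer samples.

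With the replicate number as a block 641 genes were called, 512 of them among the 973, with 70.4% higher. Same-numbered PBS libraries deviated in opposite directions (r = -0.437 and -0.558 over genes, which are not independent since the deviations of 2 MC903 libraries mirror each other), and the 4 aGr1 pairs gave 0.0312, -0.172, 0.0685 and 0.514, so the samples were taken to share only a number. The block changed the PBS minus aGr1 count from 62 to 56, with 12 genes shared.

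The PBS minus uninjected count of 4 was 4 with RLE or filterByExpr, 7 without a filter, 21 with DESeq2, 0 with either set of uninjected libraries alone and 0 to 13 with single libraries left out. The PBS minus aGr1 count of 62 was 65 with RLE, 53 with filterByExpr, 136 without a filter, 606 with DESeq2, 0 with the gland covariate, 0 without the 2 aGr1 ethanol libraries richest in gland RNA, and 0 to 399 with single libraries left out. The aGr1 effect went from 8242 to 5587 genes without those 2 libraries.

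Among the genes followed by name through the alternatives, directions turned in 5, none of which was called. Other uncalled genes were not examined for this. With single libraries left out, Vdr ranged from -0.59 (without MC903 library 2) to 0.28 (without MC903 library 1), Flg from -1.33 to 0.36 (without the same libraries), Ccl22 from -0.023 (without ethanol library 1) to 0.69 and Ccl11 from -0.66 to 0.091 (without ethanol library 2). Vdr was 0.26 with the replicate block, and Cxcl11 was -0.38 with the gland covariate. Il31 and Il17a had no counts and Ly6g at most 5 in any PBS library, so differences in them were not detectable at this depth.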

Other observations

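Hair keratin-associated protein genes, a family counted after its values were seen, had a negative log2 fold change in 56 of 56 tested members (median -1.77), but none was called by edgeR. Hair follicle markers gave 0 of 22 calls (median -1.40), and their sums with MC903 (1279.6 and 9071 cpm) overlapped with those of ethanol (2526 to 22026 cpm).

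Adipocyte markers summed to 1412 and 1265 cpm with MC903 and to 2360 to 5399 cpm with ethanol, and 1 of 12 was called, Pck1, a glyceroneogenesis enzyme, which was at 9.35 and 10.5 cpm against 62.4, 44.6 and 34.1 cpm (log2 fold change -2.23 ± 0.30, adjusted p = 0.0149 by edgeR's quasi-likelihood test). DESeq2 called 8 of the 12, all lower. B cell markers summed to 53.03 and 15.7 cpm with MC903 and to 16.4 to 36.4 cpm with ethanol. Igkc, the kappa light chain, was at 9.07 and 2.07 cpm with MC903 and at 2.12, 1.29 and 0.501 cpm with ethanol and was not called. Of the 61 genes whose effect was more positive after PBS than after aGr1, 44 were called higher after PBS and 46 in uninjected skin. Over all genes tested, 3.26% and 12.2% were called higher in these comparisons. The PBS libraries had also chosen the 61 genes, so the first count is partly built in.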
